A study of Chlorocebus aethiops with 12 samples.

Results

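The C/EBP transcription factors were followed in COS-1, an African green monkey kidney line with fibroblast-like shape. The set was defined by accession, taking every probe of each: NM_004364 (CEBPA), NM_005194 (CEBPB), NM_005195 (CEBPD), NM_001805 (CEBPE) and NM_001806 (CEBPG). These 5 accessions, of 32379 on the array, were read by 8 probes, of 41000: 3 for CEBPA, 2 for CEBPB and 1 each for the others. On each of the 12 arrays all 8 probes were flagged as well above background by the image software, and no spot of theirs was saturated or marked as an outlier. All 5 accessions passed the filter on dim probes that left 24586 for testing.

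C/EBP proteins are basic leucine zipper factors: the zipper joins a pair of them, or one of them with another zipper protein, and the basic region next to it reads the DNA. They are known for switching on genes of terminal differentiation in fat, liver and myeloid cells and genes of the acute-phase response. In mouse preadipocytes glucocorticoid is part of the mixture that starts fat cell formation, and Cebpd and Cebpb are the early members induced there, ahead of Cebpa. The glucocorticoid receptor (GR) and C/EBP proteins are also known to occupy many of the same regulatory regions.

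All cells had been transiently transfected with S211A, a GR in which a serine that is normally phosphorylated is replaced, so that none of the groups held wild-type receptor or no added receptor. The 4 groups of 3 arrays each were S211A+MDFIC with Dex, S211A+MDFIC with vehicle, S211A with Dex and S211A with vehicle. Dex is dexamethasone, a synthetic glucocorticoid, given at 100 nM for 6 h after a period in charcoal-stripped serum, and S211A+MDFIC cells also received MDFIC, the MyoD family inhibitor domain-containing protein. The labels call the replicates biological.

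Cy3-labelled RNA was hybridised to one-colour arrays with human probes, so that monkey transcripts were read through human sequence. The files pair probes with accessions and not with gene symbols, so the transfected genes and cell type markers were not analysed here. Between 67.8% and 80.7% of probes were well above background per array, and the precision is set by how many arrays there were. The arrays lay on 3 slides: S211A vehicle and S211A Dex replicate 1 on slide 1, S211A Dex replicates 2 and 3 with S211A+MDFIC vehicle replicates 1 and 2 on slide 2, and the remaining 4 on slide 3. Every level below is log2 of the signal over the 75th percentile of its own array, and every change is a difference of such levels. Levels of different probes are not comparable with each other.

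CEBPD was the member that responded to the hormone in both kinds of cell. Its product, C/EBP delta, is an inducible factor of the acute-phase and stress response and an early factor of fat cell formation. In S211A+MDFIC cells its levels were 3.49, 3.57 and 3.27 with Dex, against 2.76, 2.78 and 2.69 with vehicle. In S211A cells they were 3.64, 3.32 and 3.62 with Dex, against 2.52, 2.74 and 2.66 with vehicle. Every Dex array lay above every vehicle array in both settings, and the lowest Dex array of the 6 exceeded the highest vehicle array of the 6. The share of all accessions whose groups separate without overlap is not given, here or for the members below.

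CEBPD rose 1.62-fold with Dex in S211A+MDFIC cells (95% interval 1.38 to 1.91, log2 0.70, SE 0.11, limma adjusted p = 0.00317). In S211A cells the rise was 1.85-fold (95% interval 1.57 to 2.18, log2 0.88, SE 0.11, limma adjusted p = 0.000861). Among the 24586 accessions, 95% had a smaller absolute change than CEBPD in S211A+MDFIC cells and 97.1% in S211A cells. The change in S211A+MDFIC cells was 0.19 below that in S211A cells on the log2 scale (95% interval of the difference -0.52 to 0.15, limma adjusted p = 0.683). That interval spans both a weaker and a slightly stronger response with MDFIC, and the test of the difference did not pass.

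Arrays and groups were unevenly spread over the slides. With slide as a fixed block the change in S211A cells was log2 1.0 and passed (limma adjusted p = 0.0159), whereas in S211A+MDFIC cells it was log2 0.75 and did not (limma adjusted p = 0.0556). The rise in S211A+MDFIC cells also missed the threshold without scaling between arrays (log2 0.66, limma adjusted p = 0.0738). Within slide 1 the single S211A Dex array lay 1.0 above the 3 vehicle arrays, and within slide 3 the 3 S211A+MDFIC Dex arrays lay 0.75 above the single vehicle array. These within-slide changes were as large as those over all arrays; each rests on a lone array in 1 group, a design that called 34 accessions on slide 1 and 0 on slide 3, so its adjusted p says little.

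**Figure D1:**
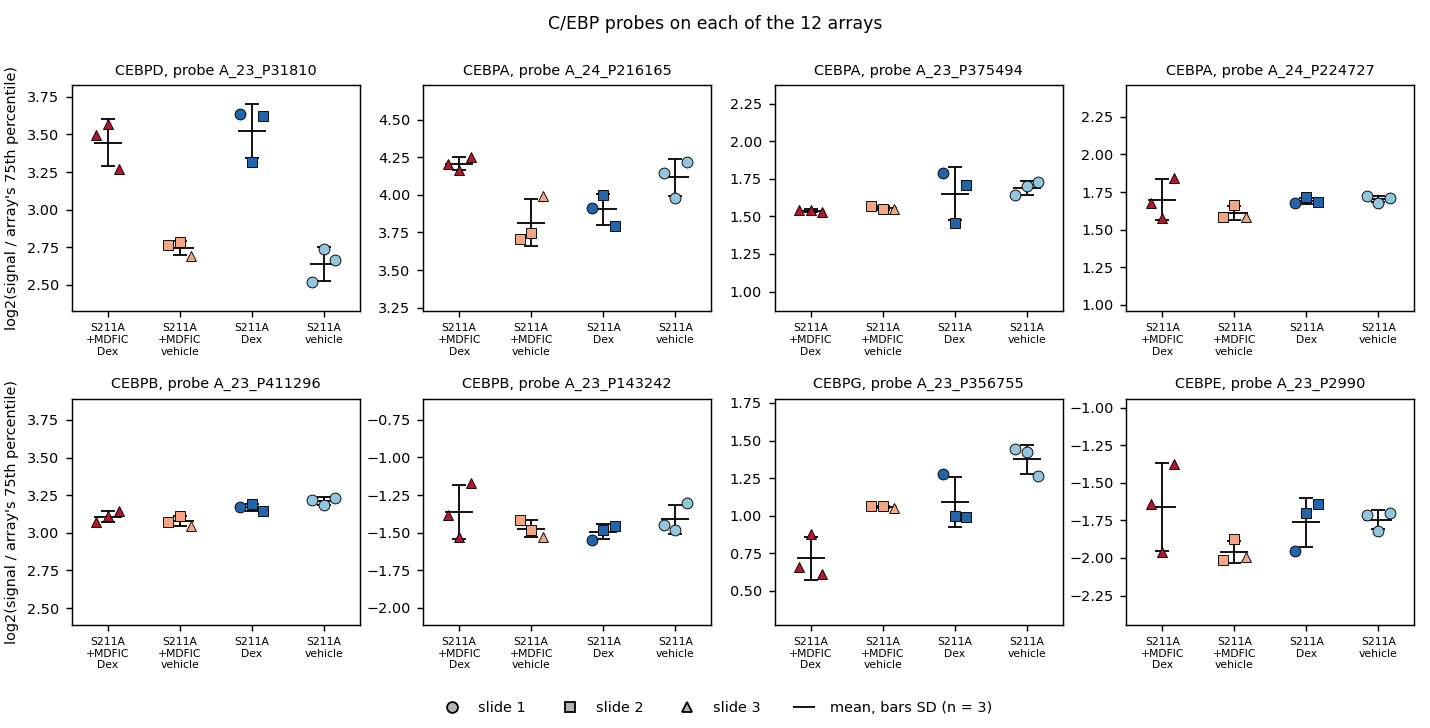
Level of each C/EBP probe on each array, as log2 of the signal over the array's 75th percentile, by group; symbols give the slide, and the horizontal mark and bars give the mean and SD of 3 arrays. Each panel spans 1.5 log2 units. For CEBPD the 6 Dex arrays lie between 3.27 and 3.64, above the 6 vehicle arrays at 2.52 to 2.78, while CEBPB probe A_23_P411296 stays between 3.05 and 3.23 on all 12 arrays.

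CEBPA was called on 1 of its 3 probes. CEBPA encodes C/EBP alpha, the factor known for holding differentiated liver, fat and granulocyte programmes and for halting proliferation. On its brightest probe, A_24_P216165, which stood for the accession, S211A+MDFIC cells had levels of 4.20, 4.16 and 4.25 with Dex, against 3.71, 3.74 and 3.99 with vehicle. In S211A cells the same probe read 3.92, 4.0 and 3.79 with Dex, against 4.15, 3.98 and 4.22 with vehicle. The groups did not overlap in S211A+MDFIC cells, where Dex was higher, and overlapped in S211A cells, where the Dex mean was the lower one.

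By that probe CEBPA rose 1.31-fold with Dex in S211A+MDFIC cells (95% interval 1.14 to 1.51, log2 0.39, SE 0.09, limma adjusted p = 0.0269). The call ended without S211A+MDFIC vehicle replicate 1 or 2 (log2 0.34 and 0.36) or S211A+MDFIC Dex replicate 1 or 3 (log2 0.39 and 0.37), with limma adjusted p between 0.0728 and 0.105. In S211A cells the change was log2 -0.21 (SE 0.09, limma adjusted p = 0.242). The response with MDFIC was 0.60 above that without it (95% interval 0.31 to 0.90), which missed the threshold over all accessions (limma adjusted p = 0.127). With S211A+MDFIC against S211A the probe differed by 0.30 under Dex and by -0.30 under vehicle, and neither passed (limma adjusted p = 0.226 and 0.152). With slide as a fixed block these differences were 0.041 and -0.37, though no slide held both groups and a lone array of another group links them. CEBPA probes A_23_P375494 and A_24_P224727 differed by -0.11 and 0.0060 under Dex and by -0.13 and -0.094 under vehicle.

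The remaining CEBPA probes did not show this pattern. Probe A_23_P375494 read 1.54, 1.54 and 1.53 with Dex, against 1.57, 1.55 and 1.55 with vehicle in S211A+MDFIC cells. Its S211A levels were 1.79, 1.45 and 1.71 with Dex, against 1.64, 1.70 and 1.73 with vehicle. The Dex and vehicle arrays of this probe lay just apart with MDFIC, Dex being lower, and overlapped without it. Probe A_24_P224727 read 1.68, 1.57 and 1.85 with Dex, against 1.58, 1.66 and 1.58 with vehicle in S211A+MDFIC cells, and in S211A cells 1.68, 1.72 and 1.68 with Dex, against 1.72, 1.68 and 1.71 with vehicle. Dex moved these probes by -0.019 and 0.090 in S211A+MDFIC cells and by -0.037 and -0.010 in S211A cells, with no call on either when every probe was tested on its own.

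The probes were also compared within each array, as the level of A_24_P216165 minus that of each remaining probe. With Dex against vehicle in S211A+MDFIC cells this difference was larger by 0.41 for A_23_P375494 and by 0.30 for A_24_P224727 (two-sided exact permutation p = 0.1 and 0.2, adjusted 0.2 and 0.229 over 8 such tests). Groups of 3 allow no p below 0.1, so these tests could not pass. Averaging the 3 probes gave a CEBPA change of log2 0.15 in S211A+MDFIC cells, which did not pass (limma adjusted p = 0.0869). The call on A_24_P216165 also ended with slide as a fixed block (log2 0.21, limma adjusted p = 0.446). That is the same estimate as the change within slide 3, which held all S211A+MDFIC Dex arrays and a lone vehicle array.

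CEBPB showed no called change with the hormone or with MDFIC. It encodes C/EBP beta, which drives acute-phase and fat cell genes and is regulated strongly at the protein level, by translation start choice and phosphorylation, which RNA arrays do not read. Probe A_23_P411296 was printed in 10 spots per array, and the SD between these spots was 0.05 to 0.11 on the log2 scale. Its S211A+MDFIC levels were 3.07, 3.11 and 3.15 with Dex, against 3.07, 3.11 and 3.05 with vehicle. Its S211A levels were 3.17, 3.19 and 3.14 with Dex, against 3.22, 3.19 and 3.23 with vehicle.

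The intervals for a Dex response were narrow on probe A_23_P411296. The Dex change was log2 0.031 in S211A+MDFIC cells (95% interval -0.07 to 0.13, limma adjusted p = 0.688) and -0.043 in S211A cells (95% interval -0.14 to 0.05, limma adjusted p = 0.639). Under vehicle, all 3 S211A+MDFIC arrays lay below all 3 S211A arrays (log2 difference -0.13, limma adjusted p = 0.166). Without scaling between arrays that difference was -0.0026 (limma adjusted p = 0.993). CEBPG, CEBPE and CEBPA probes A_23_P375494 and A_24_P224727 also lay apart and lower with MDFIC under vehicle, and the remaining probes overlapped. No slide held both vehicle groups, and with slide as a fixed block the CEBPB difference was -0.11 (limma adjusted p = 0.64). The dimmer probe A_23_P143242 ranged from -1.55 to -1.17 over the 12 arrays and passed in none of the 5 comparisons. Its intervals were wider, with Dex changes of 0.11 in S211A+MDFIC cells (95% interval -0.085 to 0.31) and -0.083 in S211A cells (95% interval -0.28 to 0.12).

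CEBPG had lower means with Dex but did not pass. C/EBP gamma has the zipper and the DNA-binding region without a classical activation domain, and pairs with relatives and with ATF4 in the amino acid stress response. S211A+MDFIC cells had levels of 0.66, 0.88 and 0.61 with Dex, against 1.06, 1.06 and 1.05 with vehicle. S211A cells had levels of 1.28, 1.0 and 0.99 with Dex, against 1.44, 1.42 and 1.27 with vehicle. The S211A+MDFIC groups did not overlap, and in S211A cells 1 Dex array lay among the vehicle arrays.

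The CEBPG change with Dex was log2 -0.34 in S211A+MDFIC cells (SE 0.10, limma adjusted p = 0.0524) and -0.29 in S211A cells (SE 0.10, limma adjusted p = 0.127). The first stood just outside the threshold: it passed in 5 of 14 other settings, quantile normalization among them (limma adjusted p = 0.0459). Without S211A+MDFIC Dex replicate 2 it was -0.42 (limma adjusted p = 0.0175), and without S211A Dex replicate 1, which is in neither group but enters the shared spread, it was -0.34 (limma adjusted p = 0.0274). Without that replicate the change in S211A cells was -0.38 (limma adjusted p = 0.0347).

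CEBPG levels also differed between slides, on which the groups were unevenly spread. The 4 arrays of slide 1 read 1.27 to 1.44. Those of slide 2 read 0.99 to 1.06, and those of slide 3 ran from 0.61 to 1.05. The slide 1 array of the S211A Dex group, at 1.28, lay with the vehicle arrays of its slide rather than with the Dex arrays of slide 2. The S211A+MDFIC vehicle group, which spans slides 2 and 3, read alike on both, at 1.06 and 1.06 against 1.05, and the lower values of slide 3 all came from its Dex arrays. Fitting slide as a fixed block gave a Dex change of -0.33 in S211A+MDFIC cells and -0.10 in S211A cells (limma adjusted p = 0.243 and 0.808). These are the changes within slide 3 and within slide 1, each with a lone array in 1 group. Slide and group cannot be fully told apart here.

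CEBPE, whose product C/EBP epsilon is known mainly from late granulocyte development, was read by a single probe. Its S211A+MDFIC levels were -1.64, -1.96 and -1.38 with Dex, against -2.01, -1.88 and -1.99 with vehicle. In S211A cells they were -1.95, -1.70 and -1.64 with Dex, against -1.72, -1.82 and -1.70 with vehicle. The Dex and vehicle arrays overlapped in both kinds of cell. CEBPE had the widest spread of the accession-level probes, with an SE of 0.13 per change, and its Dex changes of log2 0.30 in S211A+MDFIC cells and -0.019 in S211A cells did not pass (limma adjusted p = 0.188 and 0.961). Without S211A+MDFIC Dex replicate 2, the lowest Dex array of that group, the first was 0.45 and passed (limma adjusted p = 0.0248).

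**Figure D2:**
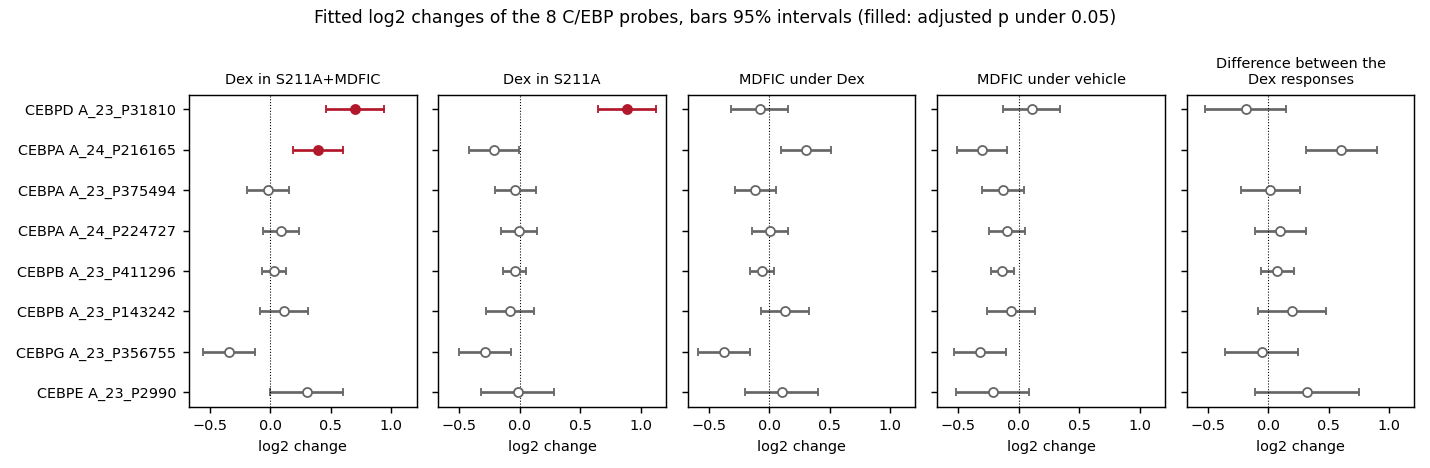
Fitted log2 changes (horizontal axis) of the 8 probes in the 5 comparisons, with 95% intervals; filled red points have a limma adjusted p under 0.05. CEBPD is filled for both Dex comparisons, at 0.70 and 0.88, and CEBPA on 1 of its 3 probes in S211A+MDFIC cells, at 0.39.

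Over the set, Dex changed 2 of the 5 accessions in S211A+MDFIC cells, CEBPD and CEBPA, where 9.99% of all tested accessions were called. In S211A cells it changed 1 of the 5, CEBPD, against 6.50% of all. The calls were rises. The median change of the 5 was log2 0.30 in S211A+MDFIC cells and -0.043 in S211A cells, beside 0.046 and 0.017 over all accessions. With so few members these shares are a description. The share over all accessions itself rested on single arrays: without S211A+MDFIC Dex replicate 2, 4699 accessions were called for Dex in S211A+MDFIC cells instead of 2457. The count of called members largely moved with that share. In that setting 4 of the 5 were called. Without scaling between arrays 518 accessions were called, and 0 of the 5. Without S211A+MDFIC vehicle replicate 1 they were 1180, and 1 of the 5. Normexp background correction and quantile normalization went the other way, with 3 of the 5 called beside 1953 and 2452 accessions. Member counts under single settings are therefore not read as results about the family alone.

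**Figure D3:**
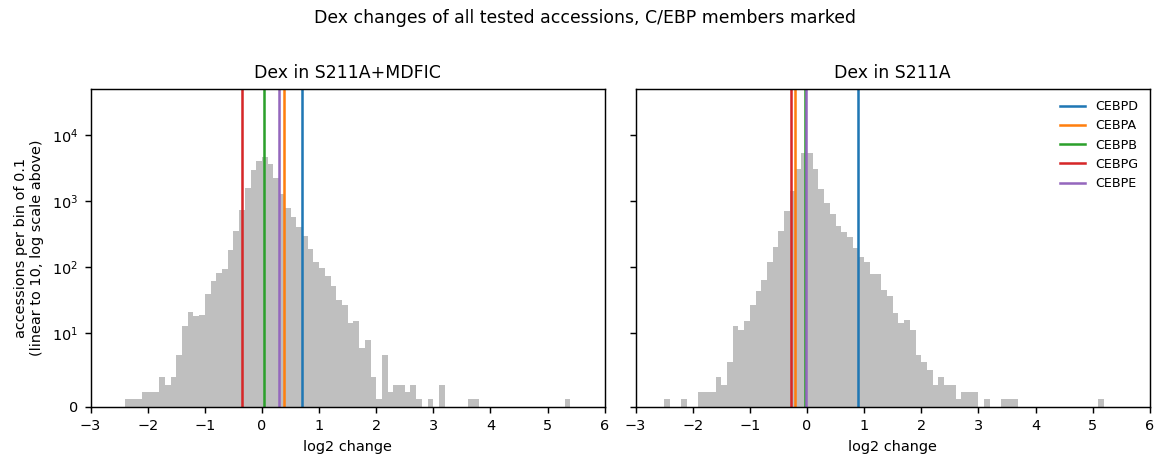
Distribution of the log2 change with Dex over the 24586 tested accessions (vertical axis linear to 10 and logarithmic above), with lines at the 5 C/EBP accessions. CEBPD lies on the right flank in both panels, at 0.70 in S211A+MDFIC cells and 0.88 in S211A cells, and CEBPB lies near the centre, at 0.031 and -0.043.

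MDFIC against S211A alone, the next question of the design, gave no called change in the family. Under Dex 0 of the 5 accessions were called by limma, against 0.427% of all, and 2 of the 5 had an unadjusted p under 0.05, as did 13.5% of all. Under vehicle 0 of the 5 were called, against 0.948% of all, and 3 of the 5 had an unadjusted p under 0.05, as did 16.5% of all. The 5 changes ran from log2 -0.37 to 0.30 under Dex and from -0.32 to 0.11 under vehicle. Without S211A+MDFIC Dex replicate 2 the calls over all accessions were 731 under Dex instead of 105 and 442 under vehicle instead of 233. No slide held both groups of either comparison. A fixed slide block therefore links them only through another group, which has a lone array on 1 of the slides. That array is S211A+MDFIC vehicle replicate 3 for the comparison under Dex and S211A Dex replicate 1 for the comparison under vehicle.

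The largest of these values belonged to CEBPG, with log2 differences of -0.37 under Dex and -0.32 under vehicle (limma adjusted p = 0.158 and 0.151). With slide as a fixed block these were -0.27 and -0.028. CEBPD differed by -0.080 under Dex and 0.11 under vehicle (limma adjusted p = 0.756 and 0.677), with 95% intervals of -0.32 to 0.16 and -0.13 to 0.34. Unscaled, the median accession was 0.12 higher (log2) on the S211A+MDFIC arrays in each of these comparisons, for which CEBPD became 0.034 under Dex and 0.24 under vehicle (limma adjusted p = 0.945 and 0.572). With slide as a fixed block the CEBPD difference under vehicle was 0.30 (limma adjusted p = 0.604). The scaled differences given between S211A+MDFIC and S211A are relative to the shift of 0.12. For Dex against vehicle the unscaled median shift was 0.0051 in S211A+MDFIC cells and -0.0063 in S211A cells.

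Whether the Dex response itself differed with MDFIC was tested as an interaction. By limma 0 of the 5 accessions passed, against 0.268% of all, and 1 of the 5, CEBPA, had an unadjusted p under 0.05, as did 9.85% of all. Over all accessions 66 passed, and 284 did without S211A+MDFIC Dex replicate 2. The differences were 0.074 for CEBPB (95% interval -0.06 to 0.21), -0.055 for CEBPG (-0.36 to 0.25) and 0.32 for CEBPE (-0.11 to 0.75). The CEBPA difference of 0.60 on its brightest probe compares with 0.018 on A_23_P375494 and 0.10 on A_24_P224727.

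The order of the group means can be read for each gene on its own probe. For CEBPD both Dex groups (S211A+MDFIC at 3.45 ± 0.16, S211A at 3.53 ± 0.18) stood above both vehicle groups (S211A+MDFIC at 2.75 ± 0.05, S211A at 2.64 ± 0.11; SD over 3 arrays). The step between Dex and vehicle exceeded the spread, and the steps between neighbours of the same treatment did not. For CEBPG the order was S211A vehicle at 1.38 ± 0.10, S211A Dex at 1.09 ± 0.16, S211A+MDFIC vehicle at 1.06 ± 0.01 and S211A+MDFIC Dex at 0.72 ± 0.14 (SD, n = 3 each), the middle groups lying within their spread. For CEBPB all 4 means fell between 3.08 and 3.21.

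The accessions that most resembled each gene were found by Pearson's r over the 12 arrays, among 9209 accessions well above background on every array with a log2 range of at least 0.5. The arrays share slides and treatments, and r is given as a description. The Dex changes of these accessions are a description too, since the accessions were picked by r over the same arrays. NM_014409 and AK094629 were closest to CEBPD (r = 0.98 for both). Dex changed NM_014409 by log2 0.33 in S211A+MDFIC cells and 0.45 in S211A cells, and AK094629 by 1.10 and 1.20. An r over 0.9 with CEBPD was shared by 320 of the 9209 accessions, compared with 89 for CEBPA, 85 for CEBPG, 9 for CEBPE and 3 for CEBPB. Closest to CEBPG were NM_015169 and NM_012141 (r = 0.98 for both), with Dex changes of -0.31 and -0.27 in S211A+MDFIC cells and -0.27 and -0.21 in S211A cells.

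**Figure D4:**
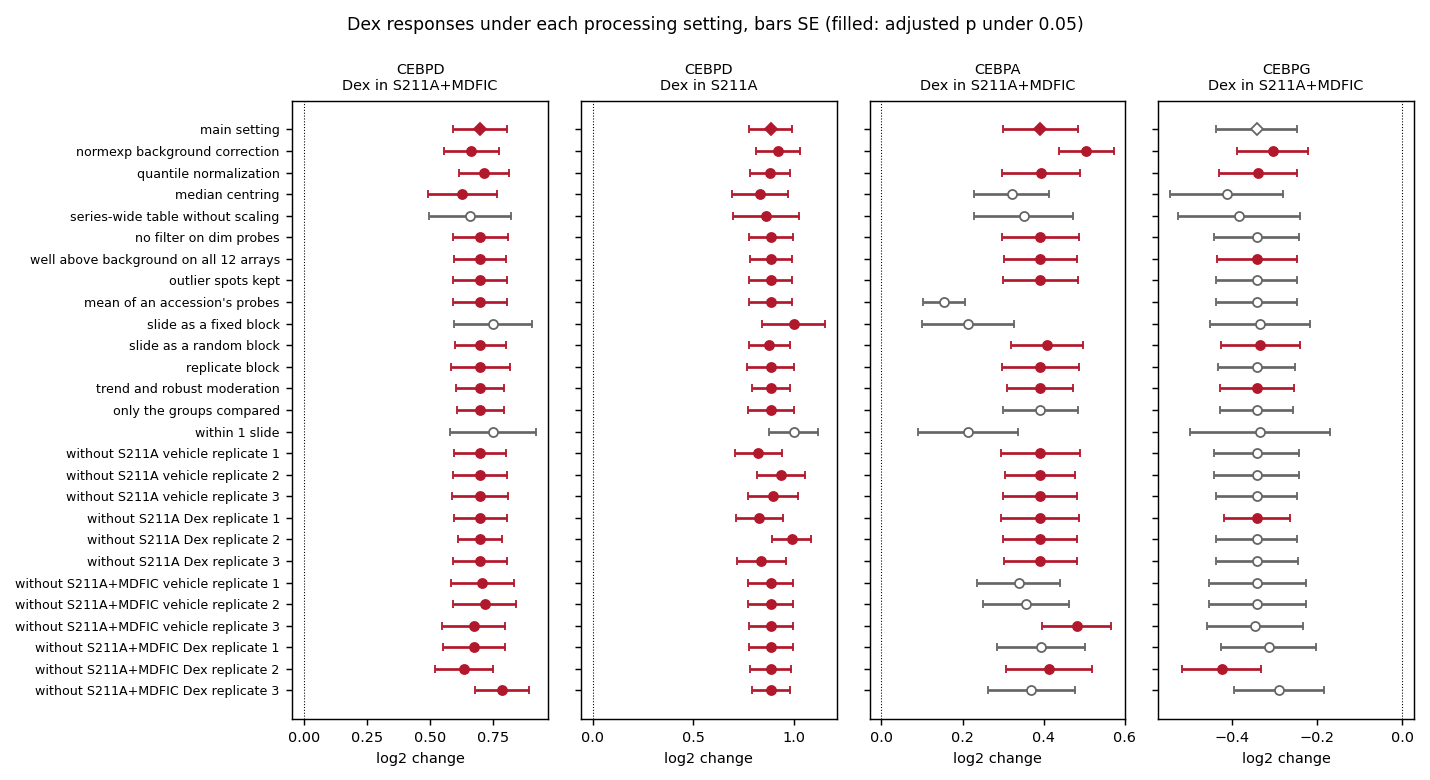
Log2 change with Dex (horizontal axis, bars SE) of CEBPD in both kinds of cell and of CEBPA and CEBPG in S211A+MDFIC cells, under the main setting (diamond), each alternative and each array left out; filled red points have a limma adjusted p under 0.05. CEBPD lies between 0.63 and 0.79 in S211A+MDFIC cells and between 0.82 and 1.0 in S211A cells, while CEBPA runs from 0.15 to 0.50.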

How the data were processed

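Per the file headers, Feature Extraction 12.0.0.7 produced each deposited intensity (linear, background-subtracted and detrended within its array) for 45015 spots. The deposited flags for spots well above background, saturated or outlying are other values of 0 or 1, per the file headers. The series-wide table of the authors held the same intensity values. Here the processed signal was taken to log2 and each array's 75th percentile was subtracted. Control spots (1639 per array) were left out and 945 outlier spots set to missing, and spots of 1 probe were averaged. A probe was kept (31230 were) if some group had it well above background on every array and each group had at least 2 values, and the brightest stood for its accession (24586). limma 3.58.1 in R 4.3.3 compared the 4 groups over all 12 arrays, two-sided, with Benjamini-Hochberg adjustment over all accessions and calls at an adjusted p under 0.05. Other C/EBP probes were adjusted over all probes. Alternatives covered scaling, background correction (normexp on the spot median signal), the filter, the probe rule, the slide and replicate number as blocks, moderation and each array left out. For CEBPD the filters, kept outlier spots, probe averaging, replicate block, moderation and fit of only the compared groups returned the main log2 change. So did leaving out an array in neither compared group. These settings could change only its p.

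The members and lists were chosen with earlier results of these data known. The named accessions were the 5 members and the 2 most alike for each, printed for CEBPD and CEBPG. Lists fixed by symbol (C/EBP relatives and targets, glucocorticoid-induced genes, cell type markers) and sequences were not analysed here. Figures were drawn with matplotlib 3.10.9.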

Additional observations from a re-analysis of the deposited data

How the results depend on the processing

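CEBPD rose with Dex in all 26 alternatives and leave-outs of each Dex comparison, many of which cannot move the estimate. The rise passed in 23 for S211A+MDFIC and 25 for S211A. In S211A cells the count of called members was 1, and 0 within slide 1. Leaving out single arrays gave 1 to 2, with CEBPG added without S211A Dex replicate 1. In S211A+MDFIC cells the count was 2. It was 3, with CEBPG added, under normexp, quantile normalization, the filter over all 12 arrays, slide as a random block, and trend and robust moderation. It was 1 with median centring (CEBPA log2 0.32), with an accession's probes averaged or with only the compared groups, and 0 without scaling, with slide as a fixed block or within slide 3. Leave-outs gave 1 to 4: CEBPG was added without S211A Dex replicate 1, CEBPA was lost without vehicle replicate 1 or 2 or Dex replicate 1 or 3 (log2 0.34, 0.36, 0.39 and 0.37), and CEBPG and CEBPE were added without Dex replicate 2. For MDFIC under Dex the count was 0, and 1 with normexp (CEBPA, 0.37). Leave-outs gave 0 to 1 (CEBPG, -0.45 without S211A+MDFIC Dex replicate 2). For the difference between the Dex responses it was 0, and 1 (CEBPA) with normexp or with trend and robust moderation. Most of these changes ran with the calls over all accessions. Their cause was not tested.

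Signs turned only for changes that were not called. CEBPE with Dex in S211A was 6.86e-05 with slide as a random block and -0.080 to 0.075 over leave-outs. CEBPB with Dex in S211A+MDFIC was -0.040 with median centring and -0.010 without scaling. For MDFIC under Dex, CEBPB was 0.053 without scaling and 0.036 with probes averaged, and CEBPD 0.034 without scaling, 0.055 with slide as a fixed block and -0.18 to 0.0076 over leave-outs. CEBPE there ran from -0.038 to 0.25, and CEBPG in the difference from -0.14 to 0.040. Of 18 same-numbered pairs of arrays, 4 correlated above 0.1, with r from -0.26 to 0.25. Pairs with different numbers were not set beside them, so whether the replicate numbers pair the arrays is not settled. With the replicate block the counts of called members were 1 and 2 for Dex and 0 elsewhere.

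Over all accessions, counts of calls ran from 34 to 1811 for Dex in S211A (main 1599), 0 to 3182 for Dex in S211A+MDFIC (2457), 72 to 1456 for MDFIC under vehicle (233), 9 to 256 for MDFIC under Dex (105) and 0 to 187 for the difference (66) across the alternatives. Over leave-outs they ran from 913 to 1871, 1180 to 4699, 65 to 442, 36 to 731 and 0 to 284 in that order. Each highest count was without S211A+MDFIC Dex replicate 2. The difference had 0 calls without replicate 1 of any group or without S211A Dex replicate 3.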

Other observations

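S211A+MDFIC Dex replicate 3 stood at an end of the range for 5 of the 8 C/EBP probes. The array was singled out from these same values, and its share of end positions over all probes is not given. Nor are the probes independent: CEBPE and CEBPA probe A_24_P224727 had r = 0.90 over the 12 arrays. This array gave the highest of the 12 values for CEBPE (-1.38), for the dimmer CEBPB probe (-1.17) and for CEBPA probes A_24_P224727 (1.85) and A_24_P216165 (4.25). It gave the lowest for CEBPG (0.61). Its CEBPD level of 3.27 was the lowest of the 6 Dex arrays. The 75th percentile of its signals, 857, was also the lowest of the 12 arrays. Leaving it out moved the CEBPE change with Dex in S211A+MDFIC cells to log2 0.16, against 0.30 with it, and the CEBPD change to 0.79, against 0.70 with it. Its part in these results was not tested further.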
